A study of Mus musculus with 25 samples.

Results

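The 10 genes Luc7l, Luc7l2, Luc7l3, Prpf39, Rbm25, Rbm39, Rbm5, Srrm1, Srrm2 and Rsrp1 encode proteins that work with the U1 particle or carry long stretches rich in arginine and serine. They are 10 of the 17591 genes of the deposited intron tables. The members were chosen from values measured in these same tumors, where introns of several of them moved with H3B-8800. Their changes with the drug are therefore given as descriptions, with no test. Tests of the members are given only between vehicle tumors of different models, a comparison that the choice did not use. The same vehicle libraries were the reference of the drug changes, so these tests are not fully independent of the choice. All 10 genes passed the filter on low counts.

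Splicing starts when the U1 particle, a complex of one small nuclear RNA and several proteins, pairs with the start of an intron, while the SF3B complex of the U2 particle settles on the branch point near its end. LUC7-like proteins and PRPF39 are relatives of yeast U1 proteins and affect which intron starts are used. Proteins rich in arginine and serine bind exons and tie the particles together, and many of their genes are known to carry poison exons. A poison exon lies inside an intron and, when included, brings a stop codon ahead of the normal one, so that the transcript becomes a target of nonsense-mediated decay.

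The tumors came from 4 mouse models of triple-negative breast cancer derived from genetically engineered mice, named T11, PyMT-M, AT3 and 2208L. They were transplanted into the mammary gland of females aged 4 to 5 weeks, PyMT-M and AT3 into C57BL/6 and T11 and 2208L into Balb/c hosts, which were randomized to vehicle or to H3B-8800, an oral small molecule that binds SF3B. RNA came from whole tumors, so host cells are included, and fewer cells of a type cannot be told apart from less RNA per cell. The groups held 4 vehicle and 4 H3B-8800 libraries of PyMT-M, 3 and 2 of AT3, 3 and 3 of 2208L, and 3 and 3 of T11. Replicates are separate tumors by the series' design text, which gives 3 or 4 per group, so AT3 has 1 fewer here. PyMT-M and 2208L are labelled as responding models, T11 and AT3 as nonresponding ones, without the dose, the number of treatment days or how response was measured.

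Each library held 9820825 to 19700955 spliced and 858362 to 5684308 intronic reads. By the T11 labels, more of the introns tested were lower than higher with H3B-8800, the opposite of the other models, so T11 directions are those of the labels only. The share of intronic reads per library overlapped between the labelled groups of T11 (11.5 to 18.1% with vehicle and 9.33 to 11.96% with H3B-8800) and between those of AT3. Epithelial markers (Epcam, keratins and Cdh1) summed to 98.6 to 499.7 CPM (read counts scaled to library size) in T11 and AT3 and to 3069 to 6384 CPM in PyMT-M and 2208L. The 5 macrophage markers, none at 0 in any library, summed to 79.1 to 247 CPM in PyMT-M vehicle and 353 to 566 CPM in PyMT-M H3B-8800 tumors, and to 122 to 553 and 989.5 to 1114 CPM in 2208L. Their part in the results below was not tested. Skeletal muscle or B cell markers were high in 6 libraries (up to 5939 and 138 CPM, against at most 37.5 and 3.78 CPM elsewhere): T11 vehicle replicate 3, T11 H3B-8800 replicate 2, PyMT-M H3B-8800 replicates 1 and 2, AT3 vehicle replicate 2 and 2208L vehicle replicate 1. Without these 6 no member's change with the drug had another sign.

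The tables list 126 introns of the 10 genes, numbered here along the transcript among the introns listed. GENCODE M21 (GRCm38/mm10) places 29 further internal exons of the same genes inside 18 of them. Of these exons, 22 occur in a transcript annotated as a target of nonsense-mediated decay, and 18 hold a stop codon in the reading frame of the exon before them. The exons of introns with fewer reads after H3B-8800 are shown first, since these introns carry the results below. Only 1 exon is shown for each intron. Intron 1 of Rbm39 also holds exon forms of 155 and 274 bases, and intron 2 an exon of 55 bases, each with an in-frame stop codon. Sequences are GENCODE M21 transcript sequence of the sense strand, and capitals mark the first in-frame stop codon.
Rbm39 intron 1, 73-base exon, chr2:156178880-156178952, minus strand: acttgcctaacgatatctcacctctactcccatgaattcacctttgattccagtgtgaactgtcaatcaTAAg
Rbm39 intron 2, 72-base exon, chr2:156174097-156174168, minus strand: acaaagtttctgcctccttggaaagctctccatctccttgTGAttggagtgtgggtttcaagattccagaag
Prpf39 intron 8, 100-base exon, chr12:65055434-65055533, plus strand: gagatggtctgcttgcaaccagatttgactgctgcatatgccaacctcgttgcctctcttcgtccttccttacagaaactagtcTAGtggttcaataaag
Rsrp1 intron 3, 45-base exon, chr4:134925777-134925821, plus strand: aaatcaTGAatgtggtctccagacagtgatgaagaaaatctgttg
Srrm1 intron 3, 282-base exon, chr4:135345196-135345477, minus strand: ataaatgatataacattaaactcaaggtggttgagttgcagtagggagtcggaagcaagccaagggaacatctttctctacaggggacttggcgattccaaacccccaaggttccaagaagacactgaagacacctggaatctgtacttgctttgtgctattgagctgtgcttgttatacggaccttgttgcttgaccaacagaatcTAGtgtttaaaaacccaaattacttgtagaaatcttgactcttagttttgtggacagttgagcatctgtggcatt

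The stop codon lay at base 70 of the 73 in the first Rbm39 exon, base 41 of 72 in the second, base 85 of 100 in Prpf39, base 7 of 45 in Rsrp1, and in the last part of the Srrm1 exon. The Rbm39 exon of 73 bases occurs in 5 annotated transcripts, 4 of them classed as decay targets, and the 2 transcripts with the Rsrp1 exon are classed as retained or processed instead. Luc7l and Luc7l2 carry a similar exon in their first listed introns. Its 2 copies share 60 of 71 bases (84.5%), hold no in-frame stop themselves and shift the frame.
Luc7l intron 1, 71-base exon, chr17:26253974-26254044, plus strand: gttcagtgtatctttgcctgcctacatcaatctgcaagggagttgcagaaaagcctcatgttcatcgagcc
Luc7l2 intron 1, 71-base exon, chr6:38568847-38568917, plus strand: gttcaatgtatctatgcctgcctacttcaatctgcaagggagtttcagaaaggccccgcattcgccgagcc

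For contrast, an intron of Rbm5 that gained reads with the drug holds no annotated exon. It is 84 bases long with 45.2% G and C, and the capitals mark its first and last pair of bases.
Rbm5 intron 13, whole intron, chr9:107751792-107751875, minus strand: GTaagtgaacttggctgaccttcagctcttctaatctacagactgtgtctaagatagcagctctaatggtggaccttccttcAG

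Gene levels are reads spliced across the introns of a gene, summed and scaled to library size (CPM), and changes are log2 ratios of H3B-8800 over vehicle ± SE from edgeR. Reads inside introns do not count toward these levels, so a lower level cannot be told apart from more transcripts left unspliced. CPM are not per length, so they compare one gene between groups, not genes with each other. In PyMT-M, AT3 and 2208L, Luc7l3, Prpf39 and Rbm39 were higher in every H3B-8800 library than in every vehicle library of the model, and Rbm5 was lower in every one. The share of all genes that separate in this way is not given here for any model. Nothing is therefore read from how many members did. Rbm25, Luc7l2 and Luc7l had higher means in all 3 models with some overlap, and Srrm1, Srrm2 and Rsrp1 differed in sign between models. The 10 changes had a median of 0.46 in PyMT-M, 0.57 in AT3 and 0.46 in 2208L, where the median of all 13001 genes tested was 0.02, 0 and 0. The 3 models share no control libraries.

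**Figure D1:**
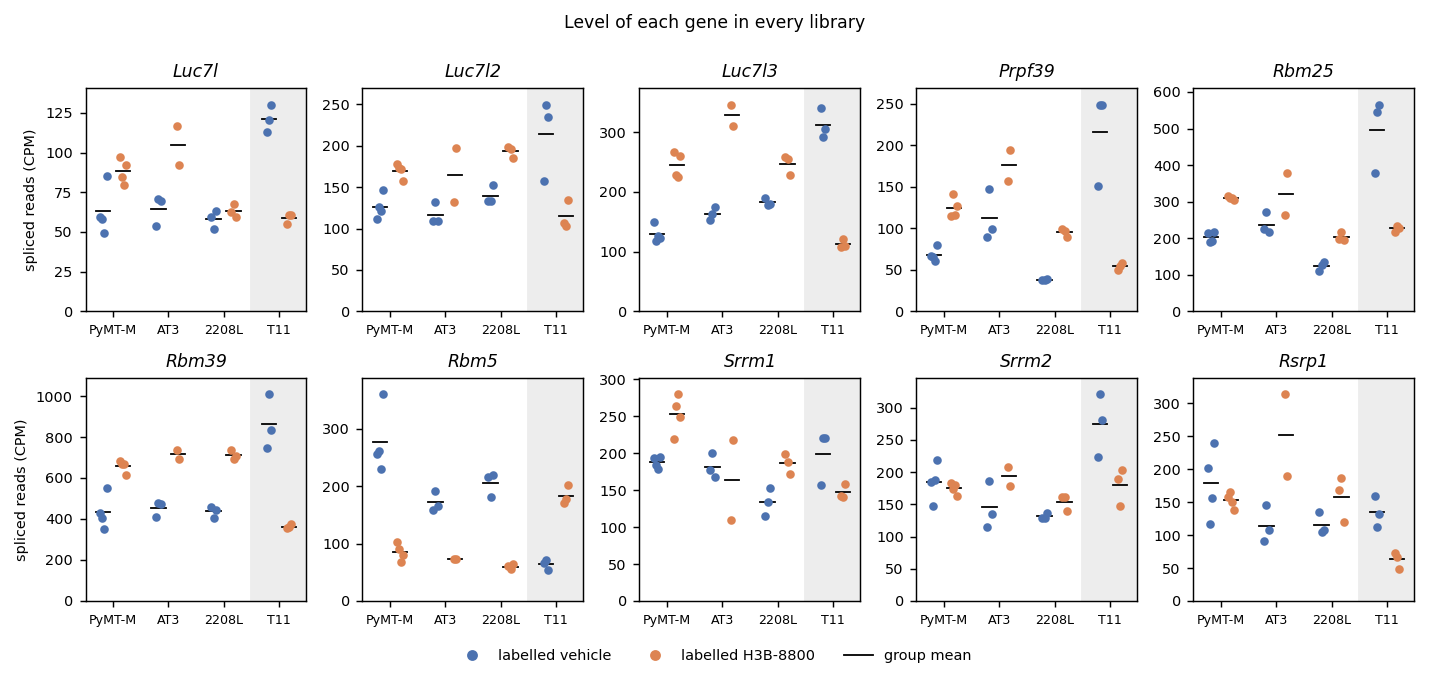
Spliced reads of each gene in CPM (linear axes from 0) in every library, by model, with vehicle in blue, H3B-8800 in orange and group means as bars. In PyMT-M, AT3 and 2208L the orange points of Luc7l3, Prpf39 and Rbm39 lie above all blue points of their model and those of Rbm5 below, and in T11 (shaded) the labelled groups are in the opposite order.

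Among the LUC7-like genes, Luc7l3 had the largest change in PyMT-M and AT3, and in 2208L those of Luc7l3 and Luc7l2 lay within their SEs. Luc7l3 stood at 150.1, 118, 126 and 122 CPM in PyMT-M vehicle tumors and at 267, 228, 225 and 259.7 CPM with H3B-8800, a log2 change of 0.92 ± 0.10. In AT3 it went from 154, 163 and 174 to 346 and 309.9 CPM (1.00 ± 0.12), about a doubling of the mean (2.004-fold). In 2208L it went from 190.2, 178 and 180.5 to 258, 254 and 228 CPM (0.43 ± 0.11). The groups did not overlap in any of the 3 models, and the 2208L change was the smallest.

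Luc7l2, which encodes a U1 protein lost in some myeloid cancers, changed by 0.43 ± 0.14, 0.50 ± 0.19 and 0.47 ± 0.17 in PyMT-M, AT3 and 2208L. Its libraries did not overlap in PyMT-M (111, 126, 121 and 147 CPM with vehicle and 178, 173, 172 and 157 CPM with H3B-8800) or in 2208L. In AT3 one H3B-8800 library, at 132 CPM, lay at the level of the highest vehicle library (132 CPM). Luc7l changed by 0.70 ± 0.18 in AT3 without overlap and by 0.49 ± 0.14 in PyMT-M with overlap. In 2208L it was 59.6, 51.9 and 63.3 CPM with vehicle and 62.3, 67.4 and 59.4 CPM with H3B-8800, a change of 0.11 ± 0.17 that lay within its SE.

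Prpf39, the relative of a yeast U1 protein, changed most in 2208L. There its vehicle libraries held 37.98, 37.7 and 38.6 CPM and its H3B-8800 libraries 99.1, 96.3 and 89.6 CPM, a ratio of means of 2.49 and a log2 change of 1.32 ± 0.19. In PyMT-M the values were 66.1, 65.8, 60.01 and 80.2 CPM and 115, 141, 116 and 126 CPM (0.87 ± 0.16). In AT3 they were 89.02, 148 and 99.1 CPM and 157 and 195 CPM (0.65 ± 0.20), where the highest vehicle library came close to the lower H3B-8800 library. Without AT3 vehicle replicate 2, which held that highest value and B cell reads, and the other 5 libraries named above, the AT3 change was 0.87.

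The 3 RBM genes split. Rbm39, which encodes a relative of the U2AF large subunit and the target of aryl sulfonamide degraders, went from 431, 404, 349 and 551 to 681, 666, 667 and 614 CPM in PyMT-M (0.60 ± 0.12). In AT3 it went from 408, 476 and 472 to 737 and 693 CPM (0.66 ± 0.15) and in 2208L from 461, 406 and 445 to 738, 692 and 708 CPM (0.71 ± 0.14). The 3 changes lay within their SEs of each other. Rbm25, whose protein is found with U1 and LUC7L3, changed by 0.61 ± 0.13 in PyMT-M and 0.71 ± 0.15 in 2208L without overlap. In AT3 it changed by 0.43 ± 0.16, and its H3B-8800 libraries held 263 and 378 CPM against 225, 272 and 216 CPM with vehicle, so the groups overlapped.

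Rbm5, a splicing regulator of early spliceosomes known for its effect on Fas, ran the other way. It went from 256, 261, 230.3 and 361 to 102.7, 90.4, 68.4 and 79.8 CPM in PyMT-M (-1.70 ± 0.15). The AT3 vehicle libraries held 159, 191 and 166 CPM and the H3B-8800 libraries 73.4 and 73.9 CPM (-1.22 ± 0.19). In 2208L the values were 216, 181 and 220.1 CPM and 60.3, 56.1 and 63.6 CPM (-1.78 ± 0.17). No group overlapped. Its H3B-8800 means were 0.308, 0.428 and 0.292 of the vehicle means. It had the largest absolute change of the 10 genes in each of the 3 models.

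The genes of the speckle and RS-rich proteins changed less evenly. Srrm1, a coactivator that bridges exon-bound factors, changed by 0.43 ± 0.16 in PyMT-M and 0.48 ± 0.18 in 2208L without overlap. In AT3 its H3B-8800 libraries were far apart, at 109 and 218 CPM against 177, 201 and 168 CPM with vehicle (-0.15 ± 0.21), and without H3B-8800 replicate 2 the change was -0.73. Srrm2, a scaffold of nuclear speckles, changed by -0.08 ± 0.15, 0.41 ± 0.19 and 0.23 ± 0.17 in PyMT-M, AT3 and 2208L, and taken as the median over its introns by 0.37, -0.08 and 0.64. Rsrp1, a gene of a little studied RS-rich protein, went from 90.8, 146 and 107 to 314 and 189.8 CPM in AT3 (1.14 ± 0.27) and from 203, 116, 156 and 239.9 to 157, 166, 150.3 and 138 CPM in PyMT-M (-0.23 ± 0.21). In PyMT-M that change was -0.62 when counted over the introns without an annotated exon and 0.27 as the median over introns, and the cause was not tested.

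**Figure D2:**
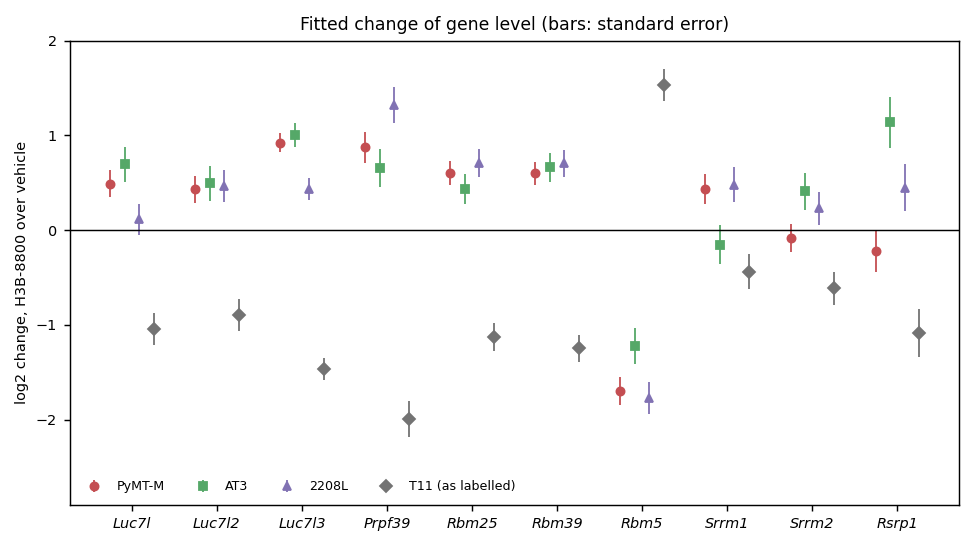
Fitted log2 change of the level of each gene, H3B-8800 over vehicle, with the standard error as bars, in PyMT-M, AT3, 2208L and, by label, T11. Rbm5 lies between -1.22 and -1.78 in the first 3 models and at 1.53 in T11, and the other 9 genes lie below 0 in T11.

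Beside these values, 10.2% of all genes were called higher and 14.6% lower by edgeR in PyMT-M, 0.123% and 0.177% in AT3, 4.67% and 5.67% in 2208L, and 6.66% and 5.07% in T11 (adjusted p under 0.05). By the same rule 6, 1, 4 and 1 members were called higher in PyMT-M, AT3, 2208L and T11, and 1, 1, 1 and 8 lower. Because the members were chosen with these contrasts in view, nothing is read from those counts.

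For each intron, the percent of reads inside is the number of reads within it divided by all reads within or spliced across it. Reads over an exon inside the intron count as inside, and long introns collect more reads, so the percent does not measure how many transcripts retain the intron. Whether reads of both strands were counted is not given in the sources used here. Genes on the other strand overlap intron 1 of Luc7l2 (Gm26699), intron 1 of Rbm25 (Gm29361) and intron 5 of Luc7l (AC126438.2). They also overlap intron 4 of Rbm5 (Gm37850) and intron 9 of Srrm2 (AC122821.1). Of the 126 introns, 90 had enough reads to be tested (means of at least 5 intronic and 10 spliced reads), and 26 of the 90 hold an annotated exon of the same strand, 3 of them one of another gene (Gm16580 in Luc7l intron 5, Gm25970 in Prpf39 intron 10 and Mir5125 in Srrm2 intron 11). In PyMT-M, AT3 and 2208L, 5 introns were lower in every H3B-8800 library than in every vehicle library of the model. They were intron 1 of Rbm39, intron 9 of Rbm25, intron 8 of Prpf39, intron 3 of Srrm1 and intron 3 of Rsrp1. The first and the last 3 hold the poison-type exons printed above, and the only exon inside the Rbm25 intron is the end exon of an alternative transcript. Annotated transcripts also keep the whole of intron 9 of Rbm25, intron 3 of Srrm1 and intron 3 of Rsrp1. Which of these the inner reads came from was not tested.

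Intron 1 of Rbm39 (chr2:156177386-156179176) held 76.9, 65.8, 75.5 and 79.9% of its reads in PyMT-M vehicle libraries and 41.5, 30.7, 27.7 and 26.6% in H3B-8800 libraries. The reads inside it went from 64.2 ± 21.1 to 19.6 ± 6.295 CPM (mean ± SD), while the reads spliced across it went from 20.9 ± 3.96 to 41.6 ± 1.598 CPM. Both quantities thus moved, in opposite directions. In AT3 spliced reads across it went from 24.02 ± 1.51 to 33.3 ± 9.71 CPM and in 2208L from 21.2 ± 0.606 to 40.9 ± 3.402 CPM. Intron 2 of Rbm39 (chr2:156173023-156177335), with the 72-base exon, held 63.3% ± 8.27 in vehicle and 40.6% ± 8.002 in H3B-8800 tumors of PyMT-M, with overlap. It held 64.8% ± 6.49 in vehicle and 43.98% ± 10.5 in H3B-8800 tumors of AT3 and 33.03% ± 8.45 in vehicle and 17.5% ± 2.63 in H3B-8800 tumors of 2208L, both without overlap.

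Intron 9 of Rbm25 (chr12:83660679-83663978) held 76.3, 59.05, 72.6 and 72.8% in PyMT-M vehicle and 15.9, 32.8, 17.7 and 20.4% in H3B-8800 libraries. In AT3 the values were 72.5, 87.4 and 72.6% and 51.9 and 40.8%, and in 2208L 52.03, 60.3 and 56.4% and 33, 25.2 and 21.4%. Its reads, taken against the gene's spliced reads, changed by -2.904 ± 0.42, -2.20 ± 0.55 and -1.62 ± 0.48 (log2 ± SE) in the 3 models. Introns 1, 6 and 15 of Rbm25, which hold cassette exons, were lower without overlap only in PyMT-M, where intron 15 went from 46.2% ± 9.68 to 9.29% ± 5.67. In AT3 and 2208L their libraries overlapped, and the difference between models was not tested.

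Intron 8 of Prpf39 (chr12:65055321-65055637), 317 bases long, held 61.7, 30.3, 60.2 and 40.9% and 9.34, 8.197, 6.400 and 5.696% in PyMT-M vehicle and H3B-8800 libraries. It held 46, 60.1 and 49.5% and 27.4 and 21.7% in AT3, and 41.4, 41.4 and 61.5% and 14.1, 14.7 and 7.26% in 2208L. Its depth was low, from 29 to 455 reads per library. Intron 3 of the gene, with 2 poison-type exons and a shorter form of one, held 67.9% ± 5.99 in vehicle and 33.02% ± 4.09 in H3B-8800 tumors of PyMT-M and 59.5% ± 19.6 in vehicle and 27.5% ± 4.93 in H3B-8800 tumors of 2208L, without overlap. In AT3 it went from 68.3% ± 7.17 to 58.7% ± 6.24, with overlap.

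Intron 3 of Srrm1 (chr4:135344670-135346734) had the largest decrease in percent of the 90 introns, with a mean change of -38.8 percentage points over the 3 models. It held 77.4, 53.7, 71.9 and 64.9% in PyMT-M vehicle and 14.2, 10.3, 9.22 and 14.6% in H3B-8800 libraries. In AT3 the vehicle libraries held 73.1, 84.02 and 74.7% and the H3B-8800 libraries 54.8 and 32.2%. In 2208L they held 29.4, 49.8 and 43.3% and 14.7, 12.7 and 12.3%. Intron 3 of Rsrp1 (chr4:134925433-134926734) started higher, with 96.4, 95.1, 97.3 and 96.3% in PyMT-M vehicle libraries, and held 67.6, 71.5, 65.5 and 67.2% with H3B-8800. Its inner reads went from 616 ± 192 to 89.5 ± 15.9 CPM and the reads spliced across it from 22.9 ± 6.49 to 41.7 ± 2.87 CPM. The level of this junction was thus higher with the drug while the summed level of the gene was not.

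Luc7l2 intron 1, which is 18601 bases long and holds 4 separate cassette exons, went from 91.2% ± 0.922 to 80.6% ± 1.28 in AT3 without overlap. It held 86.3% ± 4.48 in vehicle and 78.8% ± 1.503 in H3B-8800 tumors of PyMT-M and 78.4% ± 9.09 in vehicle and 66.2% ± 2.802 in H3B-8800 tumors of 2208L, both with overlap. Luc7l intron 1 went from 86.00% ± 3.59 to 70.7% ± 6.67 in PyMT-M without overlap, and held 85.3% ± 5.63 in vehicle and 82.5% ± 1.58 in H3B-8800 tumors of AT3 and 71.8% ± 18.8 in vehicle and 74.2% ± 0.6697 in H3B-8800 tumors of 2208L, both with overlap. The last intron of Luc7l3, which has no inner exon but is kept whole in an annotated transcript, went from 48.3% ± 5.27 to 37.2% ± 3.205 in PyMT-M without overlap. It held 37.4, 50.2 and 41.3% in vehicle and 36.2 and 38.7% in H3B-8800 libraries of AT3, with overlap. In 2208L the values were 33.5, 38.8 and 37.4% and 35.2, 34.2 and 34.0%, also with overlap. In Srrm2, intron 8 went from 55.8% ± 7.296 to 29.5% ± 0.767 in AT3 without overlap, and its PyMT-M and 2208L libraries overlapped. Some introns with an annotated exon gained reads instead, each without overlap in only 1 model. Intron 7 of Srrm1 held 3.57, 7.63 and 4.76% in vehicle and 17.1, 14.9 and 10.8% in H3B-8800 libraries of 2208L. Intron 2 of Rsrp1 held 11.8, 8.78, 10.8 and 5.69% and 29.1, 25.6, 27.3 and 27.4% in PyMT-M. Intron 1 of Srrm2 held 57.1, 63.9 and 63.2% and 88 and 74.2% in AT3.

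**Figure D3:**
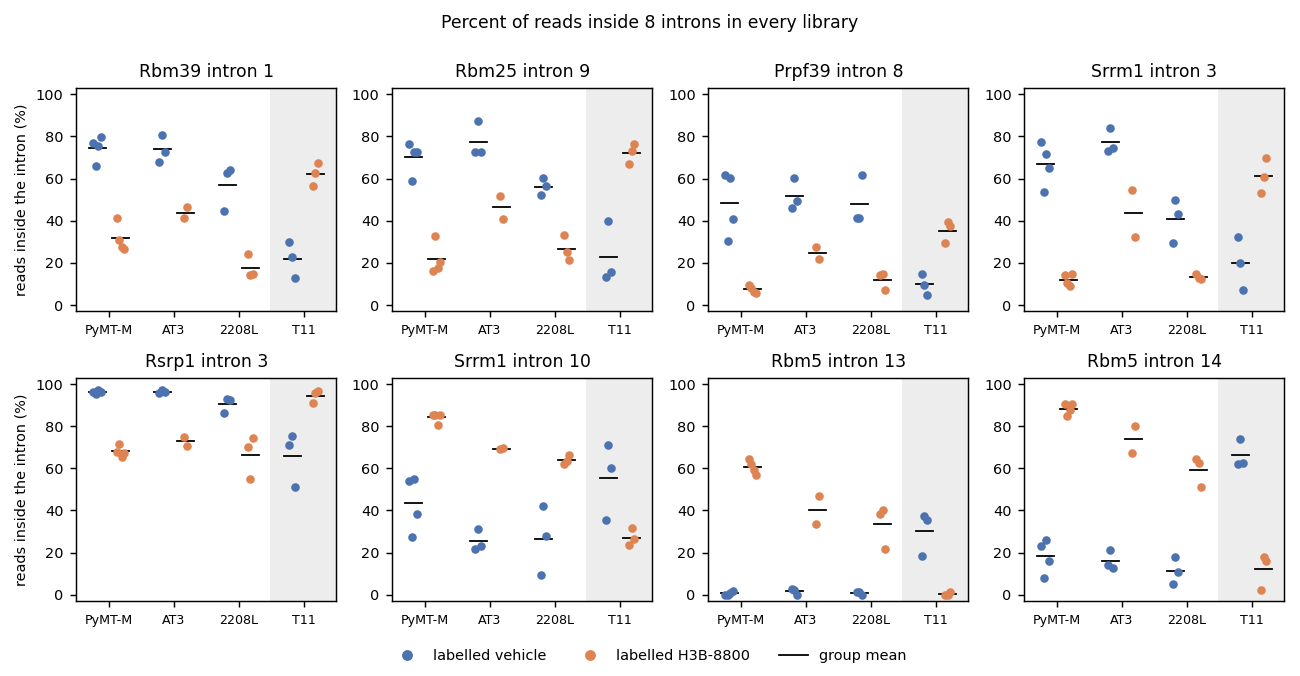
Percent of reads inside 8 introns (axis from 0 to 100) in every library, with vehicle in blue, H3B-8800 in orange and group means as bars. In PyMT-M, AT3 and 2208L the first 5 introns have every orange point below the blue ones and the last 3 every orange point above, and T11 (shaded) shows the opposite order by label.

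Other introns of the same genes gained reads with the drug. In 15 introns every H3B-8800 library of the 3 models lay above every vehicle library, 10 of them in Rbm5, 3 in Srrm1 and 1 each in Prpf39 and Luc7l. None of the 15 holds an annotated exon of the same strand. Among them, intron 4 of Rbm5 overlaps Gm37850 on the other strand. Intron 14 of Rbm5 (chr9:107750549-107751718) had the largest change. It held 22.9, 8, 25.8 and 16.1% in PyMT-M vehicle and 90.7, 84.6, 87.7 and 90.4% in H3B-8800 libraries. In AT3 the values were 13.9, 21.2 and 12.8% and 67.2 and 80.1%, and in 2208L 5.19, 18.1 and 10.8% and 64.3, 62.3 and 51.2%. Its inner reads went from 2.91 ± 1.26 to 19.5 ± 2.87 CPM in PyMT-M while the reads spliced across it went from 13.4 ± 4.82 to 2.56 ± 0.712 CPM.

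The 84-base intron 13 of Rbm5 held 0, 0, 0.7299 and 1.88% of its reads in PyMT-M vehicle and 64.3, 61.8, 59.1 and 56.7% in H3B-8800 libraries, from 12 to 213 reads per library. It was nearly free of intronic reads in all 10 vehicle libraries of the 3 models, at no more than 2.899%. Rbm5, the gene with the lower level after H3B-8800, had the most introns with more reads and also the most introns tested (17 of the 90). Its level counts spliced reads only, so the 2 results are not independent of each other. Intron 10 of Srrm1 (chr4:135329518-135331720) held 43.6% ± 13.1 in vehicle and 84.1% ± 2.47 in H3B-8800 tumors of PyMT-M, 25.3% ± 5.31 in vehicle and 69.3% ± 0.483 in H3B-8800 tumors of AT3 and 26.5% ± 16.7 in vehicle and 64.01% ± 2.25 in H3B-8800 tumors of 2208L. In Srrm1, then, intron 3 was lower and intron 10 higher in the same libraries. Intron 1 of Prpf39 changed most in 2208L, from 40.7% ± 10.7 to 83.8% ± 1.99, and intron 8 of Luc7l went from 9.101% ± 5.39 to 21.1% ± 2.28 in PyMT-M. By mean change over the 3 models, the largest increase in Rsrp1 was 13.8 percentage points (intron 1) and in Srrm2 10.4 (intron 1). In Rbm39 it was 8.83 (intron 11), in Rbm25 5.02 (intron 12), in Luc7l3 3.89 (intron 9) and in Luc7l2 0.725 (intron 3). The largest decrease in Rbm5 was -4.93 points (intron 5). None of these introns separated in all 3 models, and those of Srrm2 and Rbm39 hold an annotated exon.

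Over all 52042 introns tested, 0.177% were lower and 19.8% higher in every H3B-8800 library of the 3 models. Of the members' 26 introns with an exon inside, 5 (19.2%) were lower in this way and none higher, where all 6501 such introns gave 0.569% lower and 9.12% higher. Of the members' 64 introns without one, 15 (23.4%) were higher and none lower, near the 21.3% higher of all 45541 such introns, whose share lower was 0.121%. The decreases of some of these introns were in view when the genes were chosen, so the first share is a description. The median log2 change of the 26 introns was -1.11, -0.94 and -0.87 in PyMT-M, AT3 and 2208L, against 0.42, 0.60 and 0.50 for all introns with an exon inside. That of the 64 introns was 1.15, 0.94 and 0.92, against 1.73, 1.19 and 1.16.

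**Figure D4:**
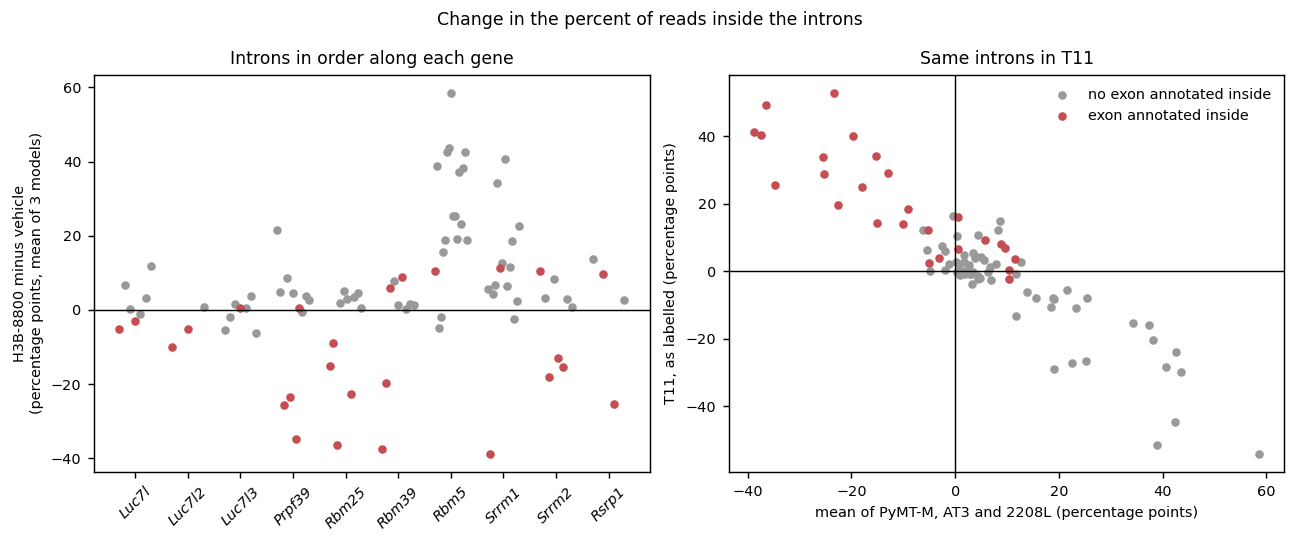
Change in the percent of reads inside each of the 90 introns tested (H3B-8800 minus vehicle, percentage points), on the left as the mean of PyMT-M, AT3 and 2208L in order along each gene, on the right against the change between the labelled groups of T11. Introns with an annotated exon (red) reach down to -38.8 points in Srrm1, introns without one (grey) up to 58.6 points in Rbm5, and the 5 introns lower in all 3 models lie above 0 in T11.

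In T11 the pattern was turned around with respect to the labels. All 5 introns that were lower in the other models were higher in every library labelled H3B-8800 than in every library labelled vehicle, and of the 15 that were higher, 11 were lower and 4 overlapped. Intron 1 of Rbm39 held 29.9, 22.7 and 12.96% in libraries labelled vehicle and 56.6, 62.8 and 67.6% in those labelled H3B-8800, and intron 14 of Rbm5 61.9, 73.8 and 62.5% and 2.15, 17.8 and 16.1%. Over all introns tested, 27.7% were lower and 3.20% higher by this rule in T11. The members' 26 introns with an exon inside were higher in 19 (73.1%) and lower in none. Of all introns with an exon inside, 6.68% were higher and 16.3% lower. The members' 64 introns without one were lower in 14 (21.9%) and higher in 8 (12.5%). Of all introns without one, 29.3% were lower, a larger share than in the members, and 2.70% higher. A swap of the T11 labels cannot be told apart from another response of this model.

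Gene levels in T11 followed the same order. Prpf39 stood at 151, 249 and 249 CPM in the libraries labelled vehicle and 49.99, 54.01 and 58.6 CPM in those labelled H3B-8800 (-1.998 ± 0.19). Rbm39 stood at 744, 1009 and 835 CPM and 354, 361 and 374 CPM (-1.25 ± 0.14), and Luc7l3 at 341, 291 and 306 CPM and 108, 121 and 109 CPM (-1.47 ± 0.12). Rbm5, again opposite, stood at 66.4, 70.97 and 53.7 CPM and 171, 178 and 202 CPM (1.53 ± 0.17). Luc7l, Luc7l2, Rbm25, Srrm2 and Rsrp1 were lower without overlap, with changes from -0.61 for Srrm2 to -1.13 for Rbm25, and Srrm1 overlapped at -0.44 ± 0.18. The libraries labelled vehicle of T11 also held the highest mean levels of the 8 groups for Luc7l, Luc7l2, Prpf39, Rbm25, Rbm39 and Srrm2.

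Vehicle tumors of different models were compared next, a contrast that the choice of the members did not use. Their libraries were also the reference of the drug changes in view at that choice, so the tests are not fully independent of it. Hosts of PyMT-M and AT3 share a strain, and those of 2208L do not, so model and strain cannot be told apart in comparisons with 2208L. All 3 comparisons share vehicle groups in pairs. Between PyMT-M and AT3, 4 of 10 members passed the test, beside 60.0% of all genes. Between PyMT-M and 2208L, 7 of 10 passed beside 45.5%, and between 2208L and AT3, 2 of 10 beside 45.2%. Adjusted p-values here are from edgeR's quasi-likelihood test over all genes.

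Prpf39 was the member that differed most, with 112 ± 31.3 CPM in AT3 (SD, n = 3), 68.04 ± 8.602 CPM in PyMT-M (n = 4) and 38.1 ± 0.464 CPM in 2208L (n = 3). Its log2 difference was -1.55 ± 0.19 for 2208L over AT3 (edgeR adjusted p = 8.84e-07), -0.72 ± 0.17 for PyMT-M over AT3 (adjusted p = 0.00109) and 0.84 ± 0.18 for PyMT-M over 2208L (adjusted p = 6.21e-04). Rbm25 was lower in 2208L as well, at 125 ± 12.01 CPM against 237 ± 29.97 CPM in AT3 (-0.93 ± 0.15, edgeR adjusted p = 2.56e-05) and 203 ± 13.96 CPM in PyMT-M (0.71 ± 0.14 for PyMT-M over 2208L, adjusted p = 3.08e-04). The difference between AT3 and PyMT-M for Rbm25 did not pass (edgeR adjusted p = 0.165).

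Luc7l3 was lower in PyMT-M, at 129 ± 14.5 CPM, than in AT3 at 164 ± 10.2 CPM (-0.34 ± 0.11, edgeR adjusted p = 0.007799) and 2208L at 183 ± 6.62 CPM (-0.50 ± 0.11, adjusted p = 5.68e-04), and neither passed when the gene was taken as the median over its introns (adjusted p = 0.173 and 0.06896). Rbm5 was higher in PyMT-M, at 277 ± 57.4 CPM, than in AT3 at 172 ± 17.3 CPM (0.69 ± 0.16, edgeR adjusted p = 6.70e-04). Against 2208L its difference of 0.43 ± 0.15 (edgeR adjusted p = 0.02801) rested in part on single libraries: without PyMT-M vehicle replicate 4 it was 0.28 with an adjusted p of 0.123, and without 2208L vehicle replicate 2 it was 0.34 with 0.122.

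Rsrp1, Srrm1 and Srrm2 passed in PyMT-M over 2208L (0.62 ± 0.23, 0.49 ± 0.17 and 0.49 ± 0.16, edgeR adjusted p = 0.0349, 0.0254 and 0.0177). Rsrp1 also passed in PyMT-M over AT3 (0.64 ± 0.23, edgeR adjusted p = 0.0229), with overlapping libraries. Each of these 4 calls was lost without single vehicle libraries. For Rsrp1 these were PyMT-M replicates 1 and 4 in both comparisons, AT3 replicates 1 and 3, and 2208L replicates 2 and 3 (edgeR adjusted p = 0.0727 to 0.160). For Srrm1 they were 2208L replicates 1 and 2 and PyMT-M replicate 1 (edgeR adjusted p = 0.0578 to 0.142), and for Srrm2 2208L replicates 1 and 2 and PyMT-M replicate 4 (adjusted p = 0.0505 to 0.0595). Without 2208L vehicle replicate 2, 3 members passed in PyMT-M over 2208L instead of 7. Luc7l, Luc7l2 and Rbm39 passed in none of the 3 comparisons, with log2 differences from -0.15 to 0.26. Rbm39 had 434 ± 85.4, 452 ± 38.1 and 437 ± 28.2 CPM in PyMT-M, AT3 and 2208L, a spread smaller than that between PyMT-M tumors.

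The introns of vehicle tumors were compared in the same way, with the gene's spliced reads as the reference. Of the 90 introns, 1 passed in PyMT-M over AT3, beside 0.605% of all introns, 13 in PyMT-M over 2208L beside 7.30% and 9 in 2208L over AT3 beside 2.96%. The intron that passed in PyMT-M over AT3 was intron 8 of Srrm1. It held 27.7% ± 12.3 in PyMT-M against 3.63% ± 1.79 in AT3 (3.03 ± 0.58, edgeR adjusted p = 0.00379). That call was not kept in every fit that left out 1 library. In 2208L vehicle tumors, fewer reads lay inside intron 3 of Srrm1 than in AT3 (40.8% ± 10.4 against 77.3% ± 5.91, -2.06 ± 0.49, edgeR adjusted p = 0.0143), and likewise inside intron 1 of Luc7l2 (-1.75 ± 0.39, adjusted p = 0.00864) and intron 9 of Rbm25 (-1.60 ± 0.47, adjusted p = 0.0499). Luc7l2 intron 1 was also higher in PyMT-M than in 2208L (1.21 ± 0.37, edgeR adjusted p = 0.0386). All introns were shifted in these comparisons, with a median log2 difference of 0.96 for PyMT-M over 2208L and -0.69 for 2208L over AT3 (1.03 and -0.80 for the 90 member introns), so the Luc7l2 difference of 1.21 lay close to the general shift. Against the spliced reads of the same intron it was 0.72 (edgeR adjusted p = 0.181), and the Rbm25 intron missed the threshold too (adjusted p = 0.0644). Without 2208L vehicle replicate 1, the library with the lowest share of intronic reads of all 25 (7.901%) and 4109.8 CPM of muscle markers, edgeR called none of the 90 introns in either comparison with 2208L, with 28 and 24 at an unadjusted p under 0.05. Without AT3 vehicle replicate 2 the 3 introns named for 2208L over AT3 also missed the threshold there (edgeR adjusted p = 0.0790 for Luc7l2, 0.125 for Srrm1 and 0.372 for Rbm25). Without 2208L vehicle replicate 3, intron 3 of Srrm1 had an edgeR adjusted p of 0.0600. The Rbm25 call lay at the threshold and was lost without most single libraries. Luc7l2 intron 1 in PyMT-M over 2208L was lost without 2208L replicates 1 or 2 or PyMT-M replicates 1, 3 or 4 (edgeR adjusted p = 0.0572 to 0.235). The introns 1 of Rbm39, 8 of Prpf39 and 3 of Rsrp1 passed in none of the 3 comparisons.

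Over the 25 libraries, the levels of Rbm5 correlated negatively with those of the other 9 members. Log2 CPM of Rbm5 correlated with the other 9 at r from -0.86 (Luc7l3) to -0.26 (Rsrp1), while those among the other 9 ran from 0.16, between Rbm25 and Rsrp1, to 0.91, between Prpf39 and Rbm25. The median r of a member with the others was 0.36 for Rsrp1, 0.38 for Srrm1 and up to 0.74 for Rbm39. These are descriptions over libraries that share treatment, model and depth. The 5 other genes whose log2 CPM most resembled the mean of the 10 standardised members over the 25 libraries were Srsf11 (r = 0.95), Srek1 (r = 0.88), Srsf4 (r = 0.87), Srsf5 (r = 0.85) and Sf3b1 (r = 0.84). Srsf11, Srek1, Srsf4 and Srsf5 encode RS-rich splicing proteins, and Sf3b1 encodes the core subunit of the complex that H3B-8800 binds. Srsf5 changed by 0.68 ± 0.14, 0.75 ± 0.18 and 1.502 ± 0.17 in PyMT-M, AT3 and 2208L, and Sf3b1 by 0.49 ± 0.14, 0.49 ± 0.18 and 0.66 ± 0.17. In the same order Srsf11 changed by 0.32 ± 0.12, 0.42 ± 0.15 and 0.46 ± 0.14. Srek1 changed by -0.01 ± 0.16, 0.59 ± 0.21 and 0.45 ± 0.19, and Srsf4 by 0.54 ± 0.14, 0.10 ± 0.18 and 0.45 ± 0.16. The changes of Srek1 in PyMT-M and Srsf4 in AT3 thus lay within their SEs. By the T11 labels all 5 were lower, with -0.98 ± 0.14 for Srsf11, -1.01 ± 0.19 for Srek1 and -0.88 ± 0.16 for Srsf4. Srsf5 changed by -1.42 ± 0.17 and Sf3b1 by -0.75 ± 0.17 there. The T11 libraries entered the correlations, and their part in the likeness was not tested.

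Genes of the same pathway that are not members did not share one direction. Their lists were drawn up with earlier results of these data known, so the calls are not independent evidence. Of 9 genes of the U1 particle and its partners, 5 fell in PyMT-M and 4 did not pass, where 14.6% of all genes were called lower, with a median log2 change of -0.52 against 0.02 for all genes. Prpf40b, the relative of a yeast U1 protein that bridges both ends of an intron, fell from 70.7 ± 19.5 to 31.1 ± 5.07 CPM in PyMT-M (-1.18 ± 0.21, edgeR adjusted p = 3.56e-04) and from 63.5 ± 5.05 to 29.9 ± 2.91 CPM in 2208L (-1.09 ± 0.24, adjusted p = 0.00732). In 2208L 1 of the list rose and 1 fell, beside 4.67% higher and 5.67% lower of all genes, and the list's median was 0.05. In the T11 labels 1 rose and 3 fell, beside 6.66% higher and 5.07% lower of all genes. Among those of the list that fell were Snrnp70, which encodes a core U1 protein, and Tial1 (-0.76 ± 0.13 and -0.55 ± 0.14, edgeR adjusted p = 8.50e-04 and 0.0135). Without the 6 libraries with muscle or B cell reads, Prpf40b was the gene left in PyMT-M and Snrnp70 in T11. Tial1 was lost without T11 H3B-8800 replicate 1 or 3 (edgeR adjusted p = 0.0592 and 0.0627).

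Of 24 other RS-rich and SRRM-related genes, 21 passed the filter on low counts (Sap18, Srrm3 and Srrm4 did not). In PyMT-M 2 rose, 4 fell and 15 did not pass, shares near the 10.2% higher and 14.6% lower of all genes. Arglu1, an RS-rich coactivator gene with a known poison exon, went from 42.5 ± 3.35 to 82.3 ± 6.404 CPM (0.95 ± 0.13, edgeR adjusted p = 2.25e-05), and Ppig, a cyclophilin of nuclear speckles, changed by 0.50 ± 0.16 (adjusted p = 0.0284). Rsrc2 fell from 125 ± 4.79 to 60.9 ± 1.42 CPM (-1.04 ± 0.14, edgeR adjusted p = 2.96e-05) and Ddx39b, a helicase of splicing and mRNA export, changed by -1.02 ± 0.20 (adjusted p = 0.00115). In 2208L 1 rose and 1 fell, beside 4.67% higher and 5.67% lower of all genes. Bclaf1 changed by 0.41 ± 0.12 (edgeR adjusted p = 0.0336) and Rsrc2 by -0.53 ± 0.16 (adjusted p = 0.0431), and neither passed without the 6 libraries (adjusted p = 0.138 and 0.167). In the T11 labels 3 fell, beside 5.07% lower of all genes. The 3 included Arglu1 (-1.32 ± 0.15, edgeR adjusted p = 1.88e-05) and Bclaf1 (-0.66 ± 0.12, adjusted p = 0.00167). Bclaf1 and Rsrc2 in 2208L were also lost without any single library of that model other than vehicle replicate 2 (edgeR adjusted p = 0.0631 to 0.18), and Rsrc2 without 10 libraries of other models. Ppig was lost without PyMT-M H3B-8800 replicate 1, 2 or 3 or vehicle replicate 4 (edgeR adjusted p = 0.0536 to 0.103). Ppig also missed the threshold without those libraries (edgeR adjusted p = 0.173), as did Bclaf1 in T11 (adjusted p = 0.0595).

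Of 13 further RBM genes of splicing, 10 passed the filter (Rbm4, Rbm14 and Rbm23 did not). In PyMT-M 3 fell and 7 did not pass, beside 14.6% lower of all genes, and in 2208L 1 fell, beside 5.67% lower. In the T11 labels 1 rose and 1 fell, beside 6.66% higher and 5.07% lower of all genes. Rbm10, the close relative of Rbm5, fell from 116 ± 22.9 to 54.97 ± 6.36 CPM in PyMT-M (-1.08 ± 0.15, edgeR adjusted p = 3.61e-05) and from 113 ± 8.72 to 46.01 ± 4.695 CPM in 2208L (-1.29 ± 0.17, adjusted p = 3.17e-04), and rose in the T11 labels (0.81 ± 0.17, adjusted p = 0.00506). It thus had the signs of Rbm5 in these 3 models. Rbm15, a part of the RNA methylation complex, fell from 1.73 ± 0.8704 to 0.128 ± 0.0384 CPM in PyMT-M (-3.65 ± 0.67, edgeR adjusted p = 5.38e-04), and Rbm27 fell in the T11 labels (-0.69 ± 0.22, adjusted p = 0.0464) with overlapping libraries. The Rbm27 call was lost without any T11 library but vehicle replicate 1 (edgeR adjusted p = 0.0932 to 0.153) and without 13 libraries of other models. Without the 6 libraries set apart, Rbm10 in T11 had an edgeR adjusted p of 0.0932. In AT3, where 2 libraries carry the H3B-8800 group, edgeR called none of the 40 genes of the 3 lists, beside 0.123% higher and 0.177% lower of all genes. At an unadjusted p under 0.05, 6 were higher and 3 lower there, and DESeq2 called 1 higher.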

How the data were processed

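Poly(A)-selected RNA of 25 whole mouse tumors was sequenced from stranded libraries. Reads were aligned with HISAT2 2.0.4, and the builds mm10 and hg38 are named, per the submitters' processing notes; the sources used here do not give the counting program, its strand setting or the annotation release. The deposited tables list, for each intron of each library, the read counts inside the intron and overlapping it, as counted by the authors without normalization. They also hold RPKM values of the intronic reads computed by the authors, which entered no test here. Of 163337 introns, 22 with incomplete lines were left out, and 99.874% of those used matched a GENCODE M21 intron.

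Spliced reads were taken as overlapping minus intronic reads and summed over introns to a gene level. The 13001 genes that reached a CPM of 1 in 2 or more libraries were fitted with edgeR 4.0.16 (R 4.3.3; robust quasi-likelihood test, TMM scaling, 8 group means over all 25 libraries, Benjamini-Hochberg adjustment, threshold 0.05). Intronic reads of 52042 introns went through a second such fit, whose offset was the logarithm of spliced reads summed over the gene. Libraries of 9820825 to 19700955 spliced reads limit the precision of introns with few reads. SE was derived from the log2 change and its F statistic (change over root F). Both fits were tested on simulated data.

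The members and lists were chosen with earlier results of these data known. All 10 members are named. Of each member's introns, the one with the largest decrease and the one with the largest increase were named, with any intron lower in every H3B-8800 library of PyMT-M, AT3 and 2208L, and from each wider list up to 2 called genes per direction and contrast with the smallest p. The 5 genes most like the members were named by their correlation with the mean of the standardised members. Other member introns in the text were chosen after their values were seen, most of them as introns with inner exons. Intron 13 of Rbm5 and intron 8 of Srrm1 hold no inner exon. Alternatives were DESeq2 1.42.0, other scaling and filters, the median over introns, the spliced reads of the same intron as offset, a replicate block, and leaving out libraries. Some genes of the wider lists are counted but not reported by name here.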

Additional observations from a re-analysis of the deposited data

Results flagged for a closer look

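In T11 several members moved against the order of the other 3 models, in every library by label, and the difference between models was not tested. The log2 change of H3B-8800 over vehicle in T11 was -1.47 for Luc7l3, -1.998 for Prpf39 and -1.25 for Rbm39, which were higher with the drug elsewhere, and 1.53 for Rbm5, which was lower elsewhere. The percent of reads inside introns differed between the T11 labels by 25.5 points in Prpf39 intron 8, 49.3 points in Rbm25 intron 9, 40.5 points in Rbm39 intron 1, 28.7 points in Rsrp1 intron 3 and 41.3 points in Srrm1 intron 3, all lower with the drug elsewhere. It differed by -54.1 points in Rbm5 intron 14 and -28.3 points in Srrm1 intron 10, both higher elsewhere.

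Single PyMT-M libraries lay far from the other 3 of their group in 4 of 60 groups examined, where chance gives about 1 in 20. Prpf39 intron 1 held 95.6% in H3B-8800 replicate 1, and Rbm25 intron 12 held 10.2% in vehicle replicate 4. Srrm1 intron 10 held 80.4% in H3B-8800 replicate 3, and Srrm2 intron 8 held 43.0% in vehicle replicate 2.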

How the results depend on the processing

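The alternatives gave 5967 pairs of a result and a setting. Of these, 5686 kept their direction and their side of the threshold or stayed within the replicate spread, and none reversed a called direction. Among the members' gene-level changes with the drug, 5 of 1310 had another sign, all in Rsrp1, Srrm1 and Srrm2. For the introns named by rule it was 29 of 2372. These included Luc7l2 intron 3 in PyMT-M (6 times), Rbm5 intron 5 in 2208L (4 times) and Luc7l intron 1 in 2208L (3 times). With gene levels as the median over introns, the member median in 2208L was 0.59, 3 members were called in PyMT-M over 2208L, 3 genes of the U1 list were lower in PyMT-M and 0 higher in T11, and the RS-rich list had 1 higher in PyMT-M and 0 higher and 0 lower in 2208L. Without the 6 libraries with muscle or B cell reads, chosen after seeing the data, the U1 list had 1 lower in PyMT-M, 0 higher in 2208L, and 0 higher and 1 lower in T11. The RS-rich list then had 1 higher in PyMT-M, 0 higher and 0 lower in 2208L and 1 lower in T11, the RBM list 0 higher and 0 lower in T11, and 0 member introns were called in either comparison with 2208L (23 in PyMT-M over 2208L and 9 in 2208L over AT3 at an unadjusted p under 0.05 in edgeR). DESeq2 called 1 RS-rich gene higher in AT3, 1 RBM gene higher and 2 lower in 2208L, and 2 RBM genes lower in T11. Without the T11 libraries the RBM list had 1 higher and 2 lower in 2208L, and from introns with no annotated exon, also chosen after seeing the data, 1 higher. Median-of-ratios size factors, and no filter on low counts, each gave 0 RS-rich genes lower in 2208L, and no filter gave 0 RBM genes lower in T11. The cause of these differences was not tested.

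With the replicate number as a block, the member medians were 0.48 in PyMT-M, 0.52 in AT3, 0.45 in 2208L and -1.07 in T11. The block gave 0 U1 genes higher in T11, 0 RS-rich genes higher and 0 lower in 2208L, and 0 RBM genes lower in T11. Same-numbered libraries correlated between -0.36 and 0.37 over 12 pairs, and 2 correlated best with their own number, so the numbers were not taken as pairs. The contrasts between vehicle models could not be estimated with the block.

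Leaving out single libraries, where AT3 with 1 H3B-8800 library was assumed to vary like the other groups, the members called ranged from 3 to 5 in PyMT-M over AT3, 3 to 7 in PyMT-M over 2208L and 2 to 3 in 2208L over AT3. Member introns called ranged from 0 to 1, 0 to 26 and 0 to 10 in the same comparisons. Member medians ranged from 0.41 to 0.57 in PyMT-M, 0.44 to 0.64 in AT3, 0.42 to 0.52 in 2208L and -1.09 to -1.01 in T11. In the U1 list, genes higher ranged from 0 to 2 in AT3, 0 to 1 in 2208L and 0 to 1 in T11, and genes lower from 4 to 5 in PyMT-M and 1 to 3 in T11. In the RS-rich list, genes higher ranged from 1 to 3 in PyMT-M, 0 to 1 in AT3, 0 to 2 in 2208L and 0 to 1 in T11, and genes lower from 3 to 4 in PyMT-M, 0 to 1 in 2208L and 3 to 7 in T11. In the RBM list, genes higher ranged from 0 to 1 in 2208L and 1 to 2 in T11, and genes lower from 3 to 4 in PyMT-M, 1 to 2 in 2208L and 0 to 3 in T11.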
